A study of Penaeus japonicus with 16 samples.

Results

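The kuruma shrimp array carried 41 probes for protease inhibitors among 13875 non-control probes. A probe was taken when its deposited gene description contained kazal, serpin, protease inhibitor, proteinase inhibitor, trypsin inhibitor, pacifastin or cystatin, and alpha-2-macroglobulins were left out. By those words the 41 probes fell into 17 serpin or serine protease inhibitor probes, 5 Kazal probes, 1 pacifastin probe, 3 cystatin probes and 15 others. The words sort descriptions and not protein families. A probe called only "serine protease inhibitor" counts here with the serpins although its family is not settled by its name. The other group holds probes called protease inhibitor epi11, a name first given to Kazal-like inhibitors of the plant pathogen Phytophthora. It also holds inter-alpha-trypsin inhibitor heavy chains, which in mammals carry no inhibitor domain and bind hyaluronan, and metalloproteinase inhibitor 3, which in mammals blocks matrix metalloproteinases. Probes are named below by their description and by the cluster number of their transcript.

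Protease inhibitors set how long and how far proteases act. A serpin offers a loop as bait, is cut by its target protease and traps it in a covalent complex. Kazal and pacifastin inhibitors are small domains that plug the active site of serine proteases, and cystatins block cysteine proteases such as cathepsins. In crustaceans serine protease cascades in the hemolymph drive melanisation, and serpins and pacifastin are known to hold the activation of prophenoloxidase in check.

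Total RNA came from untreated, apparently healthy Penaeus japonicus. Gills, hepatopancreas, lymphoid organ and muscle had 3 arrays each and hemocytes had 4, on 2 slides of 8 arrays. Hemocytes are the circulating blood cells, the hepatopancreas is the digestive gland, and the lymphoid organ of penaeid shrimp filters hemolymph. Strain, sex and age are not given, nor whether separate shrimp stood behind each array of a tissue, in the sources used here. The p-values therefore measure only the spread between these samples.

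Each array was a 1-colour Agilent hybridisation, and levels below are log2 signals minus the log2 of the 75th percentile of that array, so that 0 is the signal of a fairly bright probe. Signals of different probes cannot be set against each other, and only tissues are compared. That percentile lay between 31.3 (hemocytes 1) and 299.7 (hemocytes 3) signal units, and 41.0% (muscle 3) to 82.3% (lymphoid organ 1) of all probes were called detected. As a check of the labels, 39 of 43 tested hepatopancreas markers, 24 of 38 hemocyte markers, 17 of 23 muscle markers and 5 of 12 gill markers were higher in their own tissue, while 8 of the hemocyte markers were lower in hemocytes. The gill markers check that label little, since their summed signal was 91.0 to 177.5 in gills and 116.9 to 130.6 in hemocytes. No marker list was set for the lymphoid organ. The samples are bulk tissue, so fewer cells of a type and less RNA per cell cannot be told apart.

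Most of the tested inhibitor probes differed between tissues. Of the 41, 37 had at least 1 tissue in which all usable arrays detected them, and these were tested. In the moderated F-test across the 5 tissues, 34 of the 37 (91.9%) passed an adjusted p of 0.05, against 69.2% of all 10317 tested probes. All 15 tested serpin probes, all 5 Kazal probes, the pacifastin probe, 1 of 3 cystatin probes and 12 of 13 others passed. A probe entered the test through the tissue where it was bright, so the share is a description of the 37 and not of all 41.

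More inhibitor probes were higher than lower in gills and the lymphoid organ, and more were lower than higher in the other 3 tissues. A probe was called higher or lower when it differed at least 2-fold from the mean of the other 4 tissues with an adjusted p below 0.05. In gills 15 probes were higher and 5 lower, where 9.15% of all tested probes were higher and 8.14% lower. In hemocytes 12 were higher and 20 lower, beside 18.7% and 27.1% of all probes. In hepatopancreas 7 were higher and 18 lower, beside 20.5% and 23.6%. In the lymphoid organ 8 were higher and 2 lower, beside 6.46% and 2.73%. In muscle 4 were higher and 16 lower, beside 20.4% and 18.6%. All tested probes thus leaned the same way as the inhibitor probes in every tissue but muscle. The 7 higher in hepatopancreas were 18.9% of the inhibitor probes, near the share of all probes.

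The median difference of the 37 probes from the other tissues, on the log2 scale, was 1.02 in gills, -1.35 in hemocytes, -1.39 in hepatopancreas, 0.66 in the lymphoid organ and -1.16 in muscle. The median over all tested probes was -0.20, -0.04, -0.35, 0.11 and -0.14 in the same order. Relative to it the inhibitors stood at 1.22, -1.30, -1.04, 0.55 and -1.02.

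**Figure D1:**
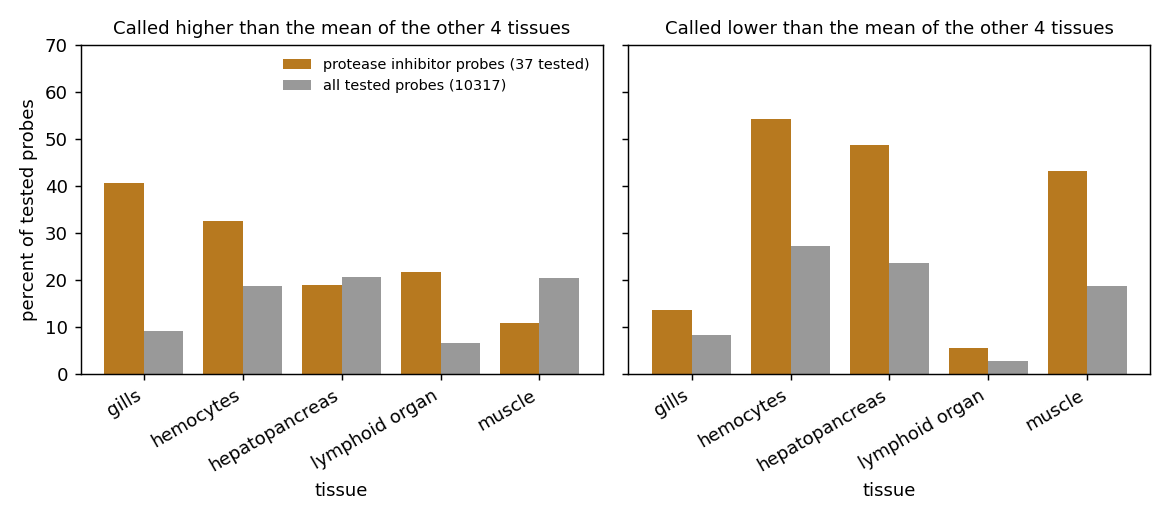
Percent of tested probes called higher (left) or lower (right) in each tissue than the mean of the other 4, for the 37 tested protease inhibitor probes and all 10317 tested probes. In gills 40.5% of the inhibitor probes were higher, against 9.15% of all probes, and in muscle 43.2% were lower, against 18.6%.

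Slides carried different arrays, and most counts were smaller within 1 slide. With the slide as a block, gills kept 15 higher and 5 lower and the lymphoid organ had 9 and 3. On slide 1 alone, where gills and hepatopancreas had 1 array each, 2 probes were higher in gills, 9 in hemocytes, 6 in hepatopancreas, 2 in the lymphoid organ and 4 in muscle. On slide 2 alone, where the lymphoid organ and muscle had 1 array each, 11 were higher in gills, 9 in hemocytes, 6 in hepatopancreas and 0 in the lymphoid organ and in muscle. The counts of the lymphoid organ also rested on single arrays: higher calls went from 8 to 3 without lymphoid organ 1, and to 4 without either lymphoid organ 2 or lymphoid organ 3.

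A stricter rule asked for at least a 4-fold excess over each other tissue, with an adjusted p below 0.05 in all 4 pairs. By this rule 16 of the 37 probes (43.2%) were enriched in 1 tissue, against 19.5% of all tested probes. Hemocytes had 6 (4.07% of all probes), gills 5 (2.65%) and hepatopancreas 5 (6.96%). Entry to the test again needed detection on all usable arrays of a tissue, so these shares describe the tested probes only. Of the enriched probes, cluster007901, cluster011067, cluster011645 and cluster028052 entered only through gills, and cluster006743 only through hepatopancreas. Their tests set that tissue against mostly undetected spots, so their p-values are not free of this selection. Within chosen pairs of the 6 hemocyte probes Pearson r was 0.934 to 0.996, over 16 arrays that share the tissue differences. Most correlations across these pairs were not computed, so the values do not show that the 6 fall into pairs. Whether the probes of a pair stand for separate genes was not tested. In the limma fit no inhibitor probe was enriched in the lymphoid organ (0.727%) or in muscle (5.14%), and none was at an unadjusted p either. With no fold minimum, 1 probe in each of these tissues stood above every other tissue at an unadjusted p below 0.05.

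**Figure D2:**
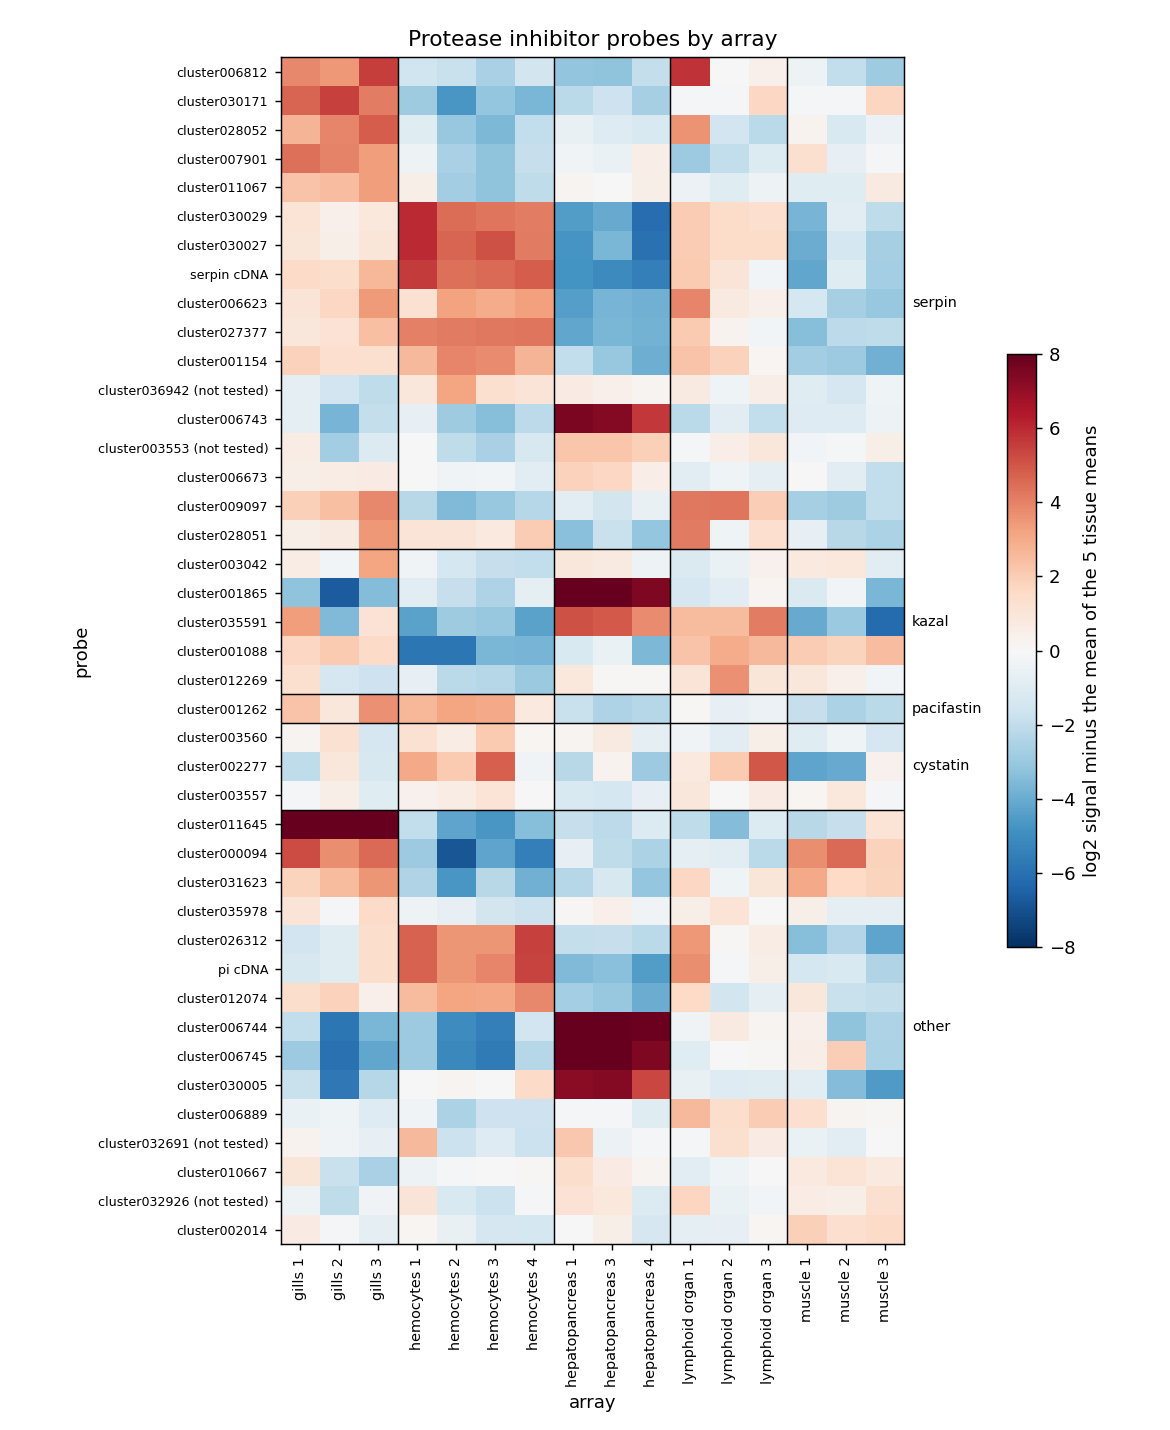
Levels of the 41 protease inhibitor probes on the 16 arrays, as log2 signal minus the mean of the probe's 5 tissue means, ordered by class and then by profile, with colours ending at 8 on either side. The blocks of high signal lie in hemocytes, gills and hepatopancreas, and the 4 probes marked as not tested had no tissue in which all usable arrays detected them.

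Of the 15 tested serpin probes, 10 were higher and 1 lower in gills, 6 higher and 7 lower in hemocytes, 4 higher and 1 lower in the lymphoid organ, 2 higher and 9 lower in hepatopancreas, and 0 higher and 9 lower in muscle. In the limma fit no serpin probe was higher in muscle at an unadjusted p below 0.05 either. Of the 6 higher in hemocytes and the 10 higher in gills, 4 were the same probes. With 10 of the 15 called in gills, an overlap of this size says little about sharing, and it was not tested. The class held 4 probes enriched in hemocytes, 4 enriched in gills and 1 enriched in hepatopancreas.

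The hemocyte serpins were led by a pair of probes, both called serine protease inhibitor. Cluster030027 read 9.95, 8.65, 9.06 and 8.10 in the 4 hemocyte arrays. It read 6.02, 5.48 and 5.43 in the lymphoid organ and 4.94, 4.43 and 4.96 in gills. It read 0.04, 2.55 and 1.34 in muscle and -0.74, 0.35 and -1.96 in hepatopancreas. The lowest hemocyte array thus lay above the highest array of any other tissue, with the lymphoid organ and gills next and the hepatopancreas last. The mean in hemocytes exceeded the mean of the other 4 tissues by 6.21 ± 0.45 on the log2 scale (SE, adjusted p = 7.55e-08) and was 9.85-fold above the lymphoid organ, the closest tissue. Cluster030029 followed it across the 16 arrays (Pearson r = 0.996), with 10.06 ± 0.85 (SD, n = 4) in hemocytes and 8.42-fold over the lymphoid organ. Both probes were detected on all 16 arrays. Their calls as higher in the lymphoid organ (log2 2.08, adjusted p = 0.0161, and 2.01, adjusted p = 0.0261) were lost without any 1 of the 3 lymphoid organ arrays.

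The serpin cDNA known from the kuruma shrimp and serpin b6 (cluster027377) were also compared as a pair, and were alike across the arrays (r = 0.986). In mammals serpin B6 is an intracellular serpin that inhibits cathepsin G. Serpin b6 read 4.56, 4.68, 4.76 and 4.83 in hemocytes, the narrowest spread of the enriched hemocyte probes. It read 1.43, 1.67 and 2.93 in gills, 2.61, 0.83 and 0.35 in the lymphoid organ, -2.85, -1.54 and -1.48 in muscle and -3.58, -3.09 and -3.26 in hepatopancreas, where 1 of 3 arrays detected it. Hemocytes stood 6.48-fold above gills, the next tissue, and 5.21 ± 0.41 log2 units above the mean of the others (adjusted p = 1.2e-07). The serpin cDNA read 5.89, 4.68, 4.77 and 5.13 in hemocytes, 7.91-fold above gills, and was not well above background on any hepatopancreas array. Both were also called higher in gills, by 1.83 and 2.33 log2 units, and both of these gill calls were lost without gills 3.

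**Figure D3:**
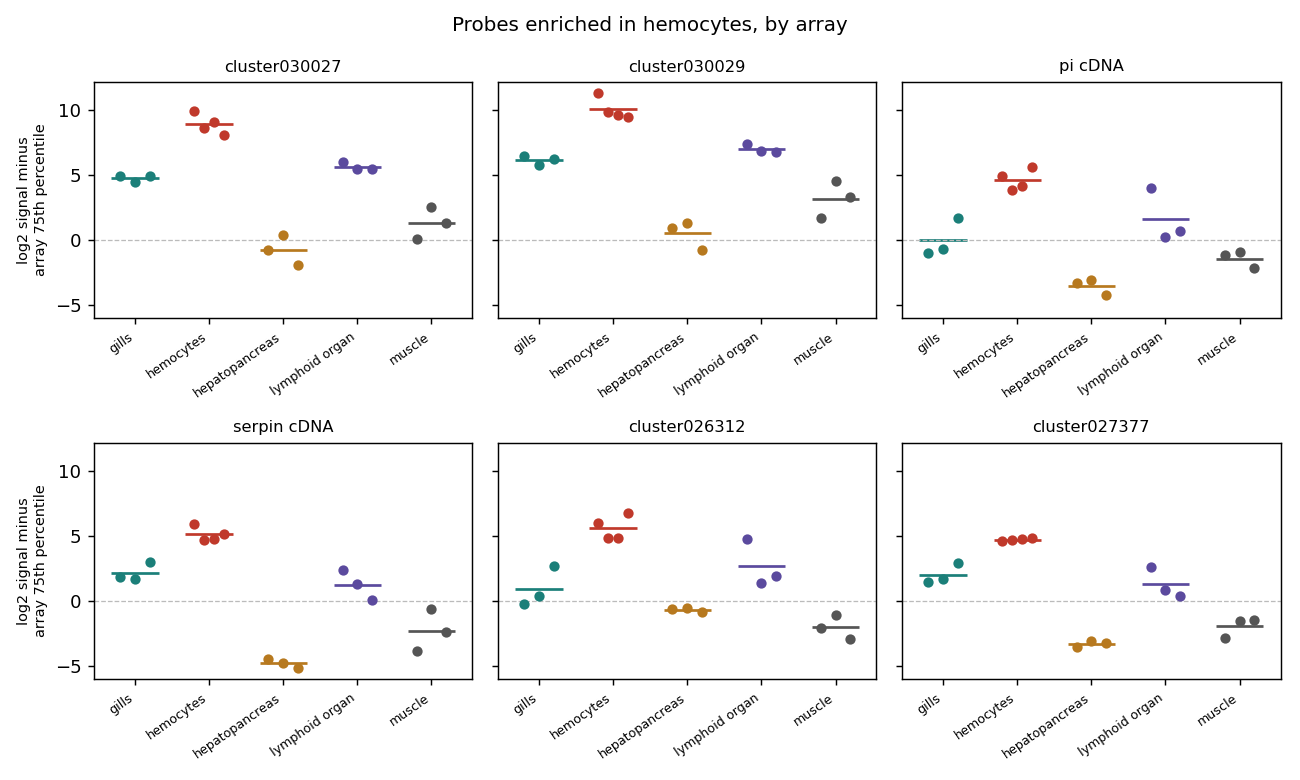
Log2 signal minus the array's 75th percentile for the 6 probes enriched in hemocytes, 1 point an array and a line at each tissue mean. In every panel the 4 hemocyte arrays lie above the gill, hepatopancreas and muscle arrays, and in the panels of cluster026312 and the pi cDNA lymphoid organ 1 comes close to or within them.

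A further hemocyte serpin was shared with gills and the lymphoid organ. Cluster001154, a serine proteinase inhibitor, read 2.78, 4.09, 4.01 and 2.92 in hemocytes, and 3.40-fold less in gills with 2.03, 1.53 and 1.5. It read 2.48, 2.03 and 0.33 in the lymphoid organ, and muscle was not well above background on any of 3 arrays. The hemocyte excess over the other tissues was 4.05 ± 0.44 (adjusted p = 2.37e-06). It missed the enrichment rule, as both gills and the lymphoid organ lay within 4-fold. Its gill and lymphoid organ calls were lost without either gills 1 or gills 2, and without either lymphoid organ 1 or lymphoid organ 2.

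Proteinase inhibitor i4 serpin cluster006623, I4 being the peptidase database family of the serpins, was present on every array of every tissue. It read 3.96, 6.01, 5.72 and 6.07 in hemocytes, 3.78, 4.44 and 6.16 in gills and 6.69, 3.47 and 3.16 in the lymphoid organ. Those 3 tissues overlapped. Muscle, with 0.39 ± 0.85 (SD, n = 3), and hepatopancreas, with -1.24 ± 0.36, lay below all of them, and the hepatopancreas fell by 5.0 log2 units from the mean of the others (adjusted p = 1.51e-05).

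Of the 4 serpins enriched in gills, cluster030171, a serine proteinase inhibitor, read 5.58, 6.42 and 5.07 in gills. It read 0.83, 0.88 and 2.63 in the lymphoid organ and 0.79, 0.81 and 2.63 in muscle. It read -1.22, -0.71 and -1.71 in hepatopancreas and -1.89, -3.70, -2.14 and -2.72 in hemocytes. All 3 gill arrays lay above every other array, and the hemocytes lay lowest. Gills were 18.9-fold above the lymphoid organ and 5.93 ± 0.51 log2 units above the other 4 tissues (adjusted p = 5.02e-07), and hemocytes fell by 4.45 (adjusted p = 1.49e-06). This serpin and the hemocyte pair above were thus ordered in opposite ways between gills and blood cells.

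The other 3 serpins enriched in gills were detected on few arrays elsewhere. Cluster007901, a serine proteinase inhibitor, read 0.19, -0.27 and -0.93 in gills. No hemocyte, lymphoid organ or muscle array and 1 of 3 hepatopancreas arrays detected it. Its gill level was at least 4.59-fold above muscle, a bound in which each undetected spot was raised to the lowest detected signal of its array. Serine proteinase inhibitor cluster028052 read -1.06, 0.16 and 1.09 in gills, at least 6.07-fold above muscle, and outside gills only lymphoid organ 1 detected it, at -0.14. Serpin peptidase clade member 4 (cluster011067) read -1.51, -1.34 and -0.42, at least 2.72-fold above muscle. The bound of cluster011067 is thus under 4-fold, although its measured mean was 5.57-fold above that of hepatopancreas, the closest by measured means. The enrichment of cluster028052 was lost when any of 12 single arrays was left out, and that of cluster011067 when any of 5 was, so that the number enriched in gills went from 5 to 3 without gills 2, gills 3, hepatopancreas 1, hepatopancreas 3 or lymphoid organ 2.

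Gills and the lymphoid organ shared serine proteinase inhibitor cluster009097. It read 2.42, 2.44 and 0.13 in the lymphoid organ and 0.09, 0.60 and 2.01 in gills. It read -2.65, -3.26 and -2.42 in hepatopancreas, where 1 of 3 arrays detected it, and was not well above background on any hemocyte or muscle array. The lymphoid organ exceeded the other tissues by 4.36 ± 0.53 (adjusted p = 0.000125) and gills by 3.41 ± 0.53 (adjusted p = 0.000247), and the difference between gills and the lymphoid organ was -0.76 ± 0.67 (adjusted p = 0.57).

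In hepatopancreas 9 of the 15 tested serpin probes were lower and 2 higher, of which 1 was enriched. Serine protease inhibitor cluster006743 read 3.70, 3.49 and 1.82 there and was not well above background on any of the 13 other arrays. Its level was at least 46.6-fold above muscle, the closest tissue by that bound, and the fitted excess over the other 4 tissues was 8.58 ± 0.65 (adjusted p = 4.17e-08). Its transcript came from the same locus of the assembly as 2 epi11 probes described below. The I4 serpin cluster006673 was the other one called higher in hepatopancreas, at 1.12, 0.98 and -0.19, 1.70-fold above gills. It had the smallest range of tissue means among the serpins, 2.27 log2 units, and was detected on 15 arrays.

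All 5 Kazal probes were called lower in hemocytes, where 27.1% of all tested probes were lower. The call is against the mean of the other 4 tissues, and hemocytes were not always the lowest tissue. They had the lowest mean for cluster001088, cluster012269 and cluster003042. For cluster001865 the hemocyte mean of -0.42 lay above muscle (-0.61) and gills (-3.38). For cluster035591 the hemocyte mean of 0.92 lay above muscle (0.16). The hemocyte calls of cluster001865 (adjusted p = 0.0282) and cluster003042 (adjusted p = 0.0167) were lost without hemocytes 3, the first also without hemocytes 2 and with the replicate number as a block, and the second also without hemocytes 4. Kazal probes were called higher in the lymphoid organ in 3 cases, in hepatopancreas in 2, and in gills and muscle in 1 each. Kazal-type serine proteinase inhibitor 4 (cluster001865) read 9.37, 9.91 and 8.49 in hepatopancreas. It read -0.29, 0.22 and 1.29 in the lymphoid organ and 0.23, -0.81, -1.42 and 0.33 in hemocytes. It read -0.08, 0.86 and -2.62 in muscle and -2.16, -5.58 and -2.41 in gills. No other array came within 7 log2 units of the lowest hepatopancreas array, and the hepatopancreas was 461-fold above the lymphoid organ. The fitted excess over the other 4 tissues was 10.26 ± 0.72 (adjusted p = 2.42e-08), and gills fell by 5.54 (adjusted p = 4.75e-05).

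Kazal-type inhibitor-like cluster035591 was bright in both hepatopancreas and lymphoid organ. It read 9.65, 9.45 and 8.33 in hepatopancreas and 7.06, 7.07 and 8.63 in the lymphoid organ. The gill arrays disagreed, at 7.90, 1.03 and 5.66. Hemocytes, at 0.25, 1.67, 1.51 and 0.25, and muscle, at 0.51, 1.57 and -1.61, lay below both bright tissues on every array. The hepatopancreas excess was 5.76 ± 0.95 (adjusted p = 0.000133). The lymphoid organ excess was 3.82 ± 0.95 (adjusted p = 0.0201) and was lost without any 1 of its 3 arrays. Hepatopancreas and lymphoid organ differed by 1.56 ± 1.22 (adjusted p = 0.385).

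Kazal-type serine protease inhibitor domain-containing protein 1-like (cluster001088) was high in 3 tissues and low in blood cells. It read 5.42, 6.08 and 5.73 in the lymphoid organ, 5.17, 4.87 and 5.59 in muscle, and 4.78, 5.21 and 4.67 in gills. It read 1.88, 2.61 and -0.50 in hepatopancreas and -2.67, -2.64, -0.53 and -0.63 in hemocytes. No pair of the 3 high tissues passed the test (adjusted p = 0.536 to 0.775), and hemocytes fell by 5.91 ± 0.50 log2 units from the mean of the others (adjusted p = 2.55e-07), the largest fall of a Kazal probe.

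The remaining Kazal probes, both called kazal-type proteinase inhibitor, varied less. Cluster012269 read -0.82, 1.75 and -0.88 in the lymphoid organ and -2.52, -4.04, -4.13 and -4.82 in hemocytes. Its lymphoid organ excess of 2.36 (adjusted p = 0.0344) was lost without any 1 lymphoid organ array or without muscle 3, and its fall of 2.51 in hemocytes (adjusted p = 0.00242) was not lost without any single array. Cluster003042 had an adjusted F-test p of 0.0444, and that call was lost when any of 10 single arrays was left out.

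The pacifastin probe (cluster001262) was shared by hemocytes and gills. Pacifastin was first isolated from crayfish plasma, where it inhibits the enzyme that activates prophenoloxidase. The probe read 3.84, 4.33, 4.24 and 1.94 in hemocytes and 3.46, 2.12 and 4.85 in gills. It read 1.32, 0.55 and 0.75 in the lymphoid organ, -0.63, -1.31 and -0.98 in muscle and -0.62, -1.29 and -1.10 in hepatopancreas. Every hemocyte and gill array lay above every other array, and the difference between the 2 tissues did not pass the test (1.08-fold, adjusted p = 0.925). The excess was 2.99 ± 0.47 in hemocytes (adjusted p = 7.6e-05) and 2.85 ± 0.52 in gills (adjusted p = 0.000969).

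Of the 3 cystatin probes, 1 passed the F-test. Cystatin b (cluster002277), whose mammalian counterpart inhibits cathepsins inside the cell, had an adjusted F-test p of 0.00652. It read 3.05, 2.16, 4.81 and -0.25 in hemocytes, 0.80, 2.13 and 5.02 in the lymphoid organ, -1.97, 0.96 and -1.23 in gills, -2.17, 0.35 and -2.85 in hepatopancreas and -4.18, -4.02 and 0.41 in muscle. Arrays of 1 tissue were up to several log2 units apart and hemocytes overlapped with every other tissue. Its excess in hemocytes, 3.01 ± 1.00 (adjusted p = 0.0207), was lost without either hemocytes 1 or hemocytes 3. The 2 cystatin-c precursor probes, of the same locus, had adjusted F-test p-values of 0.0507 (cluster003557) and 0.105 (cluster003560), and their tissue means spanned 1.65 and 1.92 log2 units. The F-test of cluster003557 passed in 7 of its 28 alternatives, and its lower call in hepatopancreas (-1.39, adjusted p = 0.015) was lost without either hepatopancreas 1 or hepatopancreas 3. Cluster003560 was called higher in hemocytes (1.29, adjusted p = 0.0326), a call lost without hemocytes 1, hemocytes 3 or lymphoid organ 2. They were weakly alike across the 16 arrays (r = 0.342).

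Hepatopancreas was the main site of 3 epi11 probes. Cluster006744 read 8.39, 8.03 and 6.35 in hepatopancreas. It read -1.73, -0.73 and -1.23 in the lymphoid organ, and it was detected on 1 of 4 hemocyte arrays, 1 of 3 muscle arrays and no gill array. The hepatopancreas was 452-fold above the lymphoid organ, with a fitted excess over the other 4 tissues of 11.31 ± 0.89 (adjusted p = 5.45e-08). Cluster006745, of the same locus, read 7.67, 7.63 and 5.97 in hepatopancreas, at least 249-fold above muscle, where 2 of 3 arrays detected it. Cluster030005 read 8.17, 8.26 and 6.24 in hepatopancreas and 0.93, 1.11, 0.97 and 2.43 in hemocytes, the closest tissue, 73.2-fold lower. Their profiles were close to each other and to that of Kazal inhibitor 4 (r = 0.959 for cluster006744 and cluster006745, 0.858 for cluster030005 and cluster006744, 0.931 for cluster030005 and cluster001865, over 16 arrays that share the tissue differences).

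Another epi11 probe, cluster011645, had the largest gill excess of the 37 probes. It read 6.07, 5.93 and 5.50 in gills. Outside gills it was detected only on hepatopancreas 4 at -3.70, on lymphoid organ 1 at -4.62 and on muscle 3 at -1.51. The gill arrays lay at least 7 log2 units above the highest array of any other tissue. Gills were at least 289-fold above muscle by the bound and 681-fold by the measured means, and the fitted excess over the other 4 tissues was 10.52 ± 0.68 (adjusted p = 1.72e-08). By the bound this excess was at least 573-fold, against 1472-fold as measured. The probe entered the test only through gills, so this p-value is not free of that selection. The same description thus covered probes of opposite tissues, and gills were among the lowest tissues for the 3 hepatopancreas epi11 probes, with falls of 4.07 to 5.44 log2 units (adjusted p = 0.000298 to 0.00125).

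**Figure D4:**
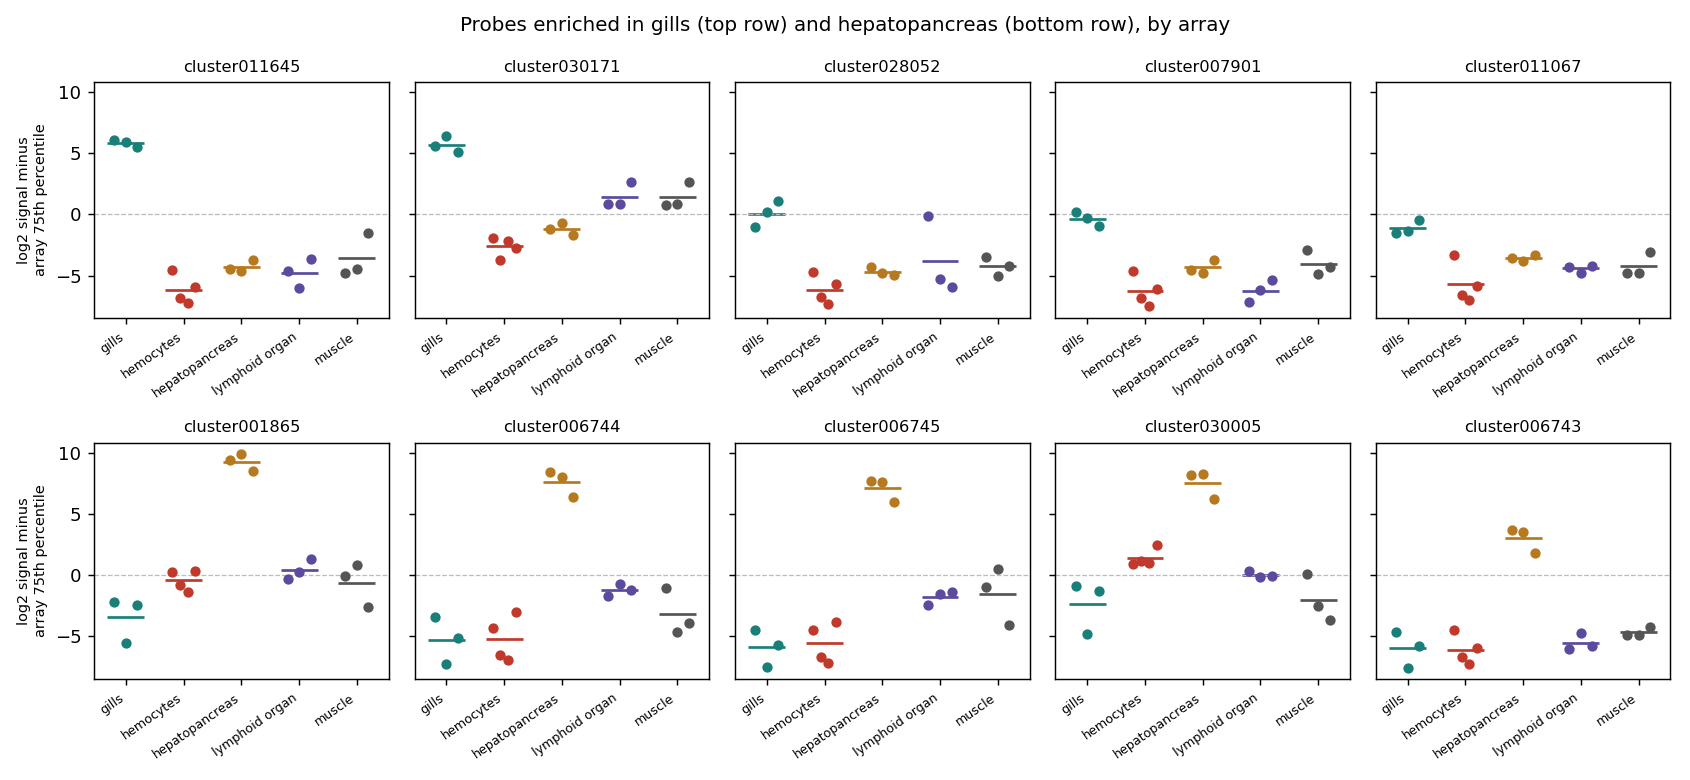
Log2 signal minus the array's 75th percentile for the 5 probes enriched in gills (top) and the 5 enriched in hepatopancreas (bottom), 1 point an array and a line at each tissue mean. Cluster011645 and cluster030171 separate gills from all other arrays, and the bottom panels separate hepatopancreas by several log2 units, while cluster028052 is also raised on lymphoid organ 1.

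Protease inhibitor cluster026312 and the kuruma shrimp protease inhibitor (pi) cDNA completed the hemocyte set. Cluster026312 read 6.0, 4.82, 4.82 and 6.77 in hemocytes, 4.73, 1.36 and 1.87 in the lymphoid organ, -0.24, 0.34 and 2.66 in gills, -0.64, -0.54 and -0.88 in hepatopancreas and -2.13, -1.08 and -2.96 in muscle. The hemocyte arrays were above all others, by a small margin over lymphoid organ 1. The excess was 5.40 ± 0.61 (adjusted p = 3.7e-06), and 7.74-fold over the lymphoid organ. The pi cDNA ran with it (r = 0.934) and stood 8.07-fold over the lymphoid organ. Both enrichments were lost without lymphoid organ 2 or lymphoid organ 3.

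Of the 4 inter-alpha-trypsin inhibitor heavy chain probes, 2 were higher in both gills and muscle. Heavy chain h3 (cluster000094) read 5.32, 3.82 and 4.58 in gills and 3.77, 4.61 and 1.94 in muscle. It read -0.70, -0.81 and -2.08 in the lymphoid organ, -0.59, -1.96 and -2.43 in hepatopancreas and -2.81, -6.74, -4.13 and -5.40 in hemocytes, where 1 of 4 arrays detected it. Gills and muscle overlapped and lay above all other arrays. The excess was 5.62 ± 0.70 in gills (adjusted p = 2.78e-05) and 4.21 ± 0.70 in muscle (adjusted p = 0.000173), and hemocytes fell by 6.06 ± 0.63 (adjusted p = 1.56e-06). The family heavy chain-related probe cluster031623 had the same pair of high tissues, with -0.26, 0.45 and 1.45 in gills and 1.00, -0.47 and -0.27 in muscle. The excess was 3.25 ± 0.60 (adjusted p = 0.00106) and 2.68 ± 0.60 (adjusted p = 0.00203). It read -0.42, -2.42 and -1.07 in the lymphoid organ, so lymphoid organ 1 lay above muscle 2. No hepatopancreas array and 1 of 4 hemocyte arrays detected it, so both excesses rest partly on undetected spots.

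Protease inhibitor 1 (cluster002014), detected on all 16 arrays, read 1.35, 0.81 and 0.98 in muscle and between -1.97 and 0.07 on every other array. Muscle was 3.29-fold above gills, the closest tissue, and 2.01 ± 0.45 above the other tissues (adjusted p = 0.00212). Its lower call in hemocytes (adjusted p = 0.0489) was lost without any of 13 single arrays.

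Some probes outside the naming rule are given because of their profile, chosen after their values were seen. Metalloproteinase inhibitor 3 (cluster006889) was detected on all 3 lymphoid organ arrays, at -1.27, -2.46 and -1.84, and elsewhere on 1 gill array alone. Its lymphoid organ excess was 2.53 ± 0.50 (adjusted p = 0.00409), but it entered the test only through that tissue. With each undetected spot raised to the lowest detected signal of its array, its mean was -1.86 in the lymphoid organ and -2.50 in muscle. The epi11 probe cluster012074 was higher in hemocytes by 3.93 ± 0.57 (adjusted p = 3.52e-05), and the epi11 probe cluster010667 did not pass the F-test (adjusted p = 0.079). Heavy chain h2-like (cluster035978) fell by 1.35 in hemocytes (adjusted p = 0.0133). The 4 probes that were not tested were heavy chain h4 isoform 1 (cluster032691), detected on 5 arrays, serine protease inhibitor 6 (cluster036942), detected on 6 including 3 of 4 hemocyte arrays, and the epi11 probe cluster032926 and serine proteinase inhibitor cluster003553, each detected on 1.

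Arrays of 1 tissue were not equally alike for these probes. Over the 37 probes, arrays of the same tissue correlated at 0.700 to 0.985, and arrays of different tissues at -0.434 to 0.763. On lymphoid organ 1, 7 inhibitor probes lay at least 4-fold above both other lymphoid organ arrays, as did 1.54% of all tested probes. They were the serpins cluster006812, cluster028051, cluster006623 and cluster028052, the protease inhibitors cluster026312 and pi cDNA, and the epi11 probe cluster012074. The I4 serpin cluster006812 read 4.54, -1.29 and -0.82 in the lymphoid organ, 2.59, 2.25 and 4.33 in gills and -2.80, -2.99, -3.82 and -2.67 in hemocytes. On gills 3, 4 probes (cluster003042, cluster028051, cluster026312 and the pi cDNA) lay 4-fold above both other gill arrays, as did 2.09% of all probes. The summed signal of the 38 hemocyte markers, relative to the 75th percentile, was 731.8, 525.0 and 328.4 in the lymphoid organ and 874.7, 838.8 and 742.2 in gills, against 4169 to 6471 in hemocytes. The highest lymphoid organ sum was that of lymphoid organ 1, while the lowest gill sum was that of gills 3, and the part of blood cells in these values was not tested.

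**Figure D5:**
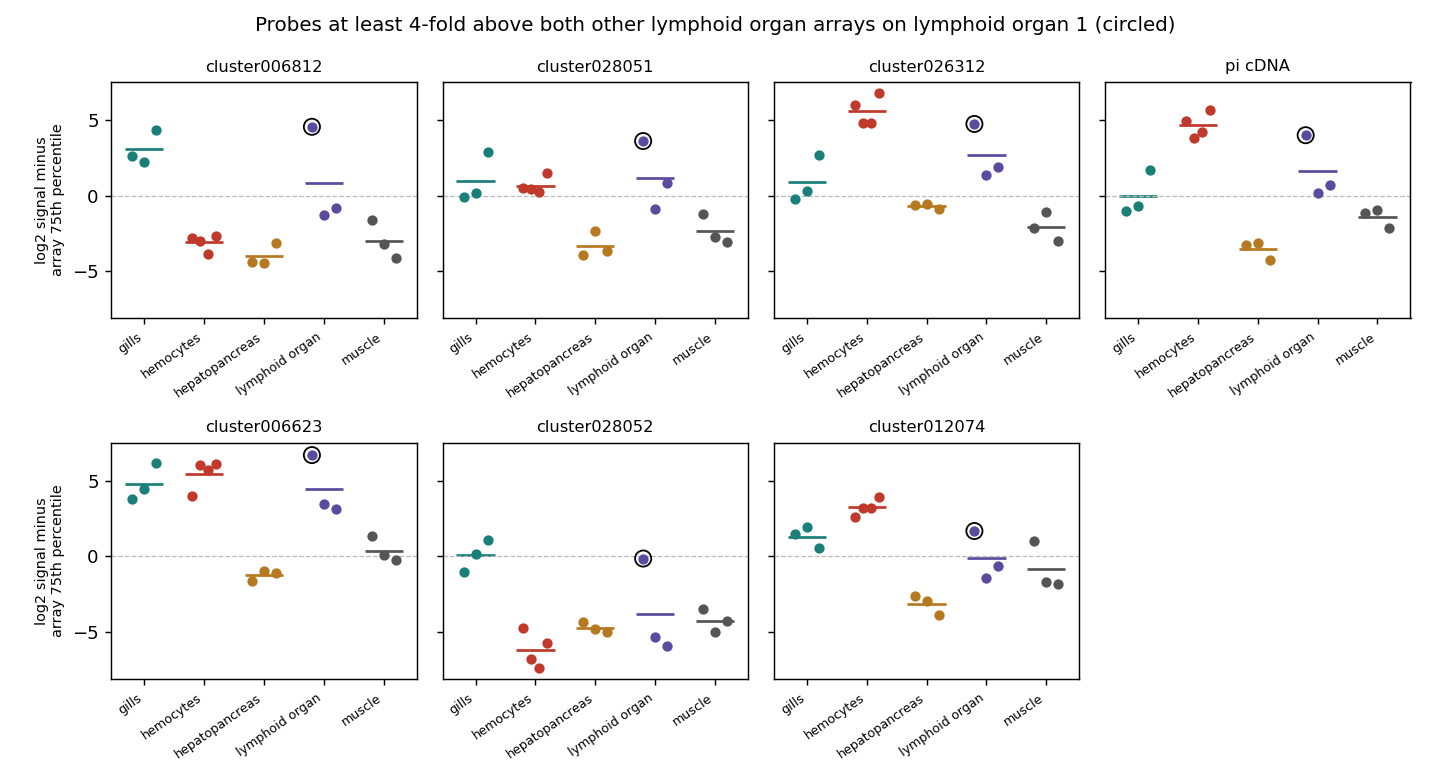
Log2 signal minus the array's 75th percentile for the 7 probes at least 4-fold above both other lymphoid organ arrays on lymphoid organ 1, which is circled. In 4 panels (cluster026312, pi cDNA, cluster006623 and cluster012074) the highest tissue mean is that of hemocytes, while cluster006812 is low there.

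Inhibitor probes also shared loci of the transcript assembly. Of the 39 with a locus number, 8 came from locus 3, which held 87117 transcripts and says nothing of kinship. Another 3 came from 1 other locus (cluster006743, cluster006744 and cluster006745), all enriched in hepatopancreas, with correlations of 0.934 to 0.959 across the 16 arrays. These 3 may share sequence and are not separate evidence for one another. The same may hold for the pairs of probes enriched in hemocytes. The transcripts cluster028051 and cluster028052 of locus 3 were less alike (r = 0.401).

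Lists of proteases, cascade substrates and alpha-2-macroglobulins were distributed in their own ways, and no inhibitor was matched to a target. Of 23 trypsin and chymotrypsin probes, 21 were higher and 1 lower in hepatopancreas, and 20 were lower in hemocytes. These probes were also part of the hepatopancreas marker list used to check the labels. Of 69 tested probes for cascade proteases and their substrates, 36 were higher and 19 lower in hemocytes, 32 higher in gills, and 6 higher and 35 lower in hepatopancreas. Of 31 cathepsin and legumain probes, which include cathepsin A and a granzyme of the serine type, 17 were higher and 12 lower in hepatopancreas and 13 higher and 3 lower in the lymphoid organ. Of 15 tested alpha-2-macroglobulin probes, broad protease traps of the hemolymph, 9 were higher and 5 lower in hemocytes and 10 were lower in hepatopancreas. The background shares for these counts are those given above for each tissue.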

How the data were processed

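The deposited table holds Feature Extraction intensity values, that is gProcessedSignal as the authors deposited it, per the file headers, beside detection flags. The submitters' processing notes name Agilent Feature Extraction 10.7.3.1. The authors' deposited log2 table equals these signals with each array's 75th percentile set to 0, as checked on the values, and served as an alternative. No sample column went unused (0 columns). Here control spots were dropped, compromised spots set missing, and log2 signals centred on each array's 75th percentile. Of 13875 probes, 10317 had a tissue in which all usable arrays detected them and were tested, and 3558 were not. Tissue means over all 16 arrays were fitted with limma 3.58.1 in R 4.3.3 (lmFit, eBayes with trend, 11 residual degrees of freedom), with Benjamini-Hochberg adjustment over all tested probes in each comparison. The fit was tested on simulated data. Saturation flags were not used. Folds over a tissue with undetected spots are lower bounds, with each such spot raised to the lowest detected signal of its array. Extending this from tissues with no detection to tissues with detection on some arrays was decided after the values were seen. It lowers the folds and enters no call. The log2 excesses and falls were fitted to the measured signals, undetected spots included, and are not such bounds. Probes were named per tissue by enrichment (up to 10) and by largest differences (up to 3 each way), and per class by largest F (up to 5) and smallest range (up to 3), which gave 30. Members and lists were chosen with earlier results of these data known. Alternatives were other scalings, filters, a floor, blocks, single slides, no trend, the deposited log2 table and leaving out arrays. The number of arrays limits the precision. No sequences of these probes are printed.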

Additional observations from a re-analysis of the deposited data

Results flagged for a closer look

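The 2 values below stood far from the other arrays of their tissue. Hemocytes was the only tissue with the 4 arrays this comparison needs, so 30 probes were looked at, and chance flags about 1 in 20. The epi11 probe cluster030005 read 2.43 on hemocytes 4 and between 0.933 and 1.11 on the other hemocyte arrays, a gap of 0.88 of the whole range. The I4 serpin cluster006623 read 3.96 on hemocytes 1, the array with the lowest 75th percentile, and between 5.72 and 6.07 on the others, a gap of 0.833 of the range.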

How the results depend on the processing

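No result reversed its direction under any alternative. Quantile, median and common-probe scaling, no or a stricter detection filter, the floor, the slide as a block, no trend, the deposited log2 table and leaving out hemocytes 1, hepatopancreas 4 and muscle 3 together (chosen after seeing the data) kept every count of inhibitor probes within 1.5 times. Single slides did not. On slide 1 alone gills had 2 higher, 1 lower and 1 enriched, hemocytes 11 lower and 0 enriched, hepatopancreas 7 lower, and the lymphoid organ 2 higher and 0 lower. On slide 2 alone 2 were enriched in gills and 1 in hemocytes, the lymphoid organ had 0 higher and 0 lower, and muscle 0 higher and 4 lower. A slide leaves some tissues with 1 array, assumed to vary like the rest. Leaving out 1 array gave 12 to 17 higher, 4 to 6 lower and 3 to 6 enriched in gills. It gave 10 to 13, 15 to 20 and 4 to 6 in hemocytes, and 7 to 8, 15 to 19 and 5 to 5 in hepatopancreas. It gave 3 to 10 higher and 0 to 3 lower in the lymphoid organ (0 lower without lymphoid organ 1 or 2), 4 to 5 and 13 to 17 in muscle, and 32 to 35 differing among tissues. Whether replicate numbers pair the arrays is not settled by these values. Same-numbered deviations correlated at -0.405 to 0.399 (median 0.021 over 27 pairs), and differently numbered ones at -0.283 to 0.342 (median -0.021). The replicate block gave 15 higher and 5 lower in gills, 12 and 18 in hemocytes, 7 and 18 in hepatopancreas, 8 and 2 in the lymphoid organ, and 4 and 15 in muscle. Of 95 called differences of named probes, 35 held in all 29 settings and 60 were lost in at least 1. Of 16 enrichments 6 held and 10 were lost. Most losses came on single slides, but 24 differences and 4 enrichments were also lost when 1 array was left out. The cause was not tested. Common-probe scaling moved the median of all probes by 0.626 in hepatopancreas, -0.467 in muscle, -0.315 in hemocytes and 0.122 in gills. Probes not well above background in a tissue have only a bound there.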
